A study of Arabidopsis thaliana with 16 samples.

Results

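Seedlings of an Arabidopsis line overexpressing the rice glutaredoxin OsGRX8 were compared with wild-type seedlings after both had been treated with methyl viologen (MV). The comparison comprised 2 arrays of the OsGRX8 line under MV and 2 arrays of the wild type under MV, 4 of the 16 Affymetrix ATH1 arrays in the series. Both groups were 14-day-old seedlings of the Columbia ecotype given 25 µM MV for 3 h. The other 12 arrays held the same pair of genotypes in water, in 100 µM indole-3-acetic acid (IAA, an auxin) or in 200 mM NaCl, with 2 arrays in each of those groups. The sources used here do not give the promoter behind OsGRX8 or the number of independent lines, and the rice transcript was not analysed here. Replicates are biological according to the design text. All 22746 probe sets other than the Affymetrix controls were tested, and genes of the nuclear and organelle genomes were described apart: 13415 probe sets named 1 nuclear gene, 69 named 1 chloroplast-encoded gene each, and 18 named 11 mitochondrion-encoded genes.

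Methyl viologen, the herbicide paraquat, accepts electrons from photosystem I and hands them to oxygen, so superoxide forms first in the chloroplast. Glutaredoxins are small proteins that reduce disulfides with glutathione, and OsGRX8 belongs to the CC-type class found in land plants. The chloroplast genome encodes core subunits of the photosystems, the cytochrome b6f complex, the ATP synthase and the NDH complex, the large subunit of Rubisco, ribosomal proteins and subunits of an RNA polymerase of bacterial type, while most other chloroplast proteins come from nuclear genes. A second, nuclear-encoded polymerase of phage type also transcribes chloroplast genes.

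All 69 measured chloroplast-encoded genes stood lower in the OsGRX8 line than in the wild type under MV, on both arrays of the line against both arrays of the wild type. The median difference was -1.52 on the log2 scale, a level 2.86-fold lower, and single genes lay between -3.27 (atpA) and -0.31 (atpE). The median difference over nuclear probe sets was 0.01. The poly-A spike-ins, bacterial transcripts put into the RNA before labelling, were lower on the same arrays too, with a median difference of -1.12. No single gene of any genome passed the test across all probe sets. The smallest adjusted p, 0.119 (limma, Benjamini-Hochberg over 22746 probe sets), was shared by 4 chloroplast genes and the nuclear gene AT5G58570 among the named genes.

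Counted over all probe sets, 0 of 22746 (0%) had an adjusted p under 0.05 by limma, and 1212 (5.33%) had an unadjusted p under 0.05, of which 773 were higher and 439 lower in the OsGRX8 line. The count past the adjusted test was 9, all lower and 7 of them chloroplast genes, with median centring, 7 without wild-type MV replicate 2 and 2 without OsGRX8 line MV replicate 2. The share that was higher among these 1212, 63.8%, depended on the scaling: it was 47.6% after a repeated quantile normalization, 46.1% after normalization on nuclear probe sets and 17.0% after median centring. The levels of both OsGRX8 line arrays lay below those of both wild-type arrays for 3625 probe sets (15.9%) and above them for 4609 (20.3%). Against this background, the arrays did not overlap for 69 of 69 chloroplast genes, all of them lower, and for 11 of 18 mitochondrial probe sets that were lower and 1 that was higher. Among nuclear probe sets 2194 (16.4%) were lower and 2680 higher without overlap. An unadjusted p under 0.05 was found for 58 of the 69 chloroplast genes, all lower, for 5 of the 18 mitochondrial probe sets, all lower, and for 639 of 13415 nuclear ones.

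**Figure D1:**
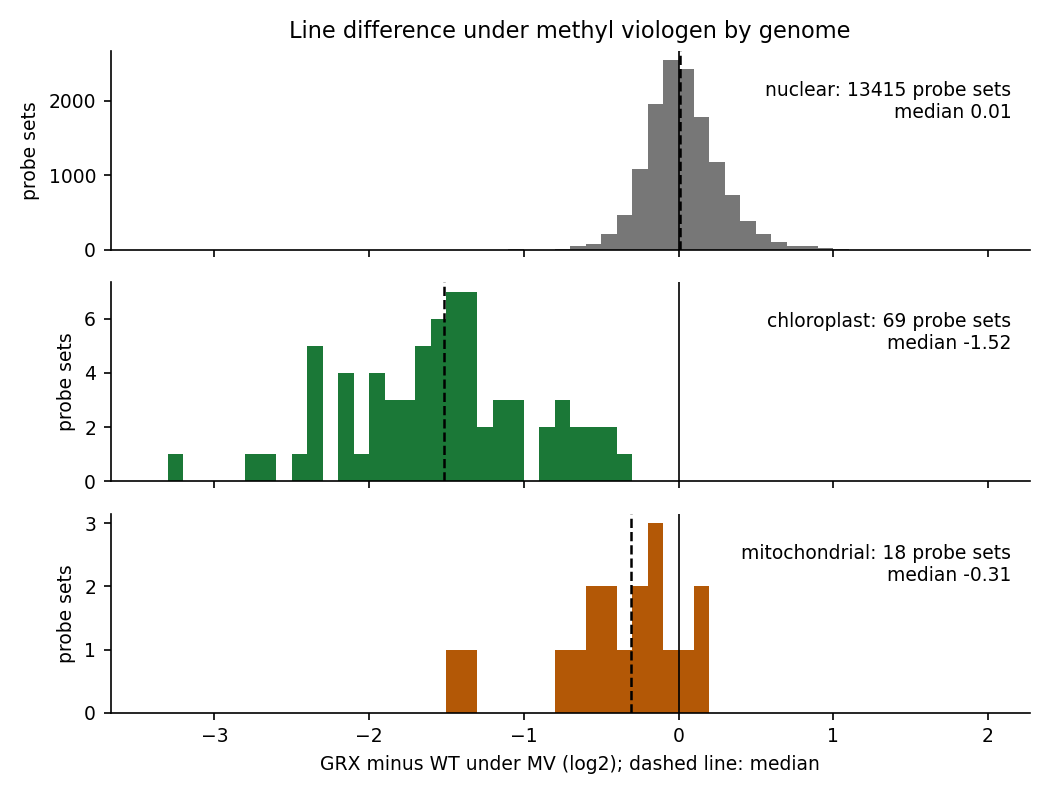
Number of probe sets (vertical axes) by the difference of the OsGRX8 line minus the wild type under MV (log2, horizontal axis), for nuclear, chloroplast and mitochondrial genes. The nuclear probe sets centre on 0.01, the 69 chloroplast genes lie wholly below 0 with a median of -1.52, and the 18 mitochondrial probe sets have a median of -0.31.

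The 4 arrays gave the same picture as a whole. Median log2 levels over the 69 chloroplast genes were 5.31 and 5.49 on the OsGRX8 line arrays, against 7.16 and 6.92 on the wild-type arrays. When each OsGRX8 line array was set against each wild-type array, 69 of 69 genes were lower in every one of the 4 pairings, with median differences between -1.88 and -1.19, whereas 45.3% to 51.3% of the nuclear probe sets were lower. The mean of the array medians was 5.40 ± 0.13 in the OsGRX8 line and 7.04 ± 0.17 in the wild type (SD, n = 2 each). An exact two-sided permutation test of these medians gave p = 0.333, the smallest that 2 arrays against 2 allow. In RNA from whole seedlings, fewer chloroplast-rich cells and less chloroplast RNA in each cell cannot be told apart, and the spike-in difference stands beside both.

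The poly-A spike-ins carry a tail added by design and pass through labelling with the sample, whereas the hybridization controls are labelled beforehand and added later. All 24 poly-A spike-in probe sets were lower on both OsGRX8 line arrays under MV than on both wild-type arrays, at differences between -1.46 and -0.81, with array medians of 3.11 and 3.35 in the OsGRX8 line and 4.68 and 4.16 in the wild type. These probe sets read only the transcripts dap, lys, phe and thr, several probe sets each, so they are not independent observations. The same holds for the hybridization controls. The 18 hybridization controls had a median line difference of -0.05 under MV, with array medians of 6.39 and 6.06 in the OsGRX8 line and 6.29 and 6.27 in the wild type. In the other conditions the median line difference of the spike-ins was -0.29 in water, -0.12 in IAA and -0.19 in NaCl, beside chloroplast medians of -0.51, -0.03 and -0.09. Under MV against water the spike-ins were higher by a median of 0.82 in the OsGRX8 line and 1.63 in the wild type, while the chloroplast medians were -0.97 and -0.20. When each array was scaled on its spike-in median, a setting added after the data were seen, the chloroplast median difference under MV was -0.33 and that of all probe sets 1.21, and 88 probe sets passed the adjusted test, all higher and 0 of them chloroplast genes. The part of the spike-in difference in the chloroplast difference was not tested.

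Further control measures were read on the same arrays. The 3′ minus 5′ signal of the spike-in thr was 2.42 and 2.62 in the OsGRX8 line and 1.801 and 2.22 in the wild type, without overlap. The spike-ins did not share a direction in this measure. A second pair of thr probe sets overlapped, and the gap of dap was wider in the OsGRX8 line. The gap of phe was narrower there, and that of lys was narrower or overlapped. The 25S ribosomal RNA probe set read 8.71 and 8.82 in the OsGRX8 line and 8.50 and 8.16 in the wild type, and the 5S probe set read 1.13 and 1.09 against 2.62 and 2.15, so the 5S probe set was lower in the OsGRX8 line as the chloroplast genes were. For actin, a control of RNA integrity, the 3′ minus 5′ signal was 1.61 and 1.56 in the OsGRX8 line and 1.73 and 1.73 in the wild type. Replicate arrays correlated at 0.989 in the OsGRX8 line and 0.987 in the wild type across 22746 probe sets. Of 56 nuclear photosynthesis genes that were listed, 9 had a named probe set, and their mean log2 level was 9.41 and 9.27 in the OsGRX8 line and 8.93 and 9.59 in the wild type. The part of these measures in the chloroplast difference was not tested.

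The genes with the smallest p-values belonged to different parts of the chloroplast machinery. The gene rpoC2 encodes a large subunit of the chloroplast RNA polymerase. Its log2 levels were 6.04 and 6.01 in the OsGRX8 line, against 8.26 and 7.65 in the wild type, a difference of -1.94 ± 0.27 (SE, 3.83-fold lower, limma adjusted p = 0.119). The gene petA, for cytochrome f of the cytochrome b6f complex, read 6.82 and 6.59 in the OsGRX8 line and 8.49 and 8.06 in the wild type (-1.57 ± 0.24, 2.98-fold lower). The ribosomal protein genes rps19 and rpl14 lie in one gene cluster. The first read 8.15 and 8.34 in the OsGRX8 line and 9.59 and 9.20 in the wild type (-1.15 ± 0.18), and the second 7.69 and 7.80 in the OsGRX8 line and 9.34 and 8.75 in the wild type (-1.30 ± 0.20). In each of these genes the gap between the groups was wider than the distance between replicates. The maturase gene matK, whose protein helps to splice chloroplast introns, read 8.02 and 7.88 in the OsGRX8 line and 9.44 and 9.15 in the wild type (-1.35 ± 0.22, limma adjusted p = 0.150).

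Genes of the photosystems stood lower throughout. The 15 measured photosystem II genes had a median difference of -1.65, from -2.70 (psbI) to -1.23 (psbH), and 11 had an unadjusted p under 0.05. Of all probe sets, 1.93% were lower at that threshold. The gene psbA, for the D1 protein of the reaction centre, read 5.61 and 5.49 in the OsGRX8 line and 7.84 and 7.09 in the wild type (-1.91 ± 0.71). The gene psbD, for the D2 partner protein, read 3.99 and 3.70 in the OsGRX8 line and 5.28 and 5.04 in the wild type (-1.32 ± 0.57), and psbM, for a small subunit, read 9.10 and 8.62 in the OsGRX8 line and 10.18 and 10.25 in the wild type (-1.35 ± 0.26). The 4 neighbouring genes psbE, psbF, psbL and psbJ lay close together, between -1.73 and -1.35. The 7 genes counted with photosystem I, which include the assembly factors ycf3 and ycf4, had a median of -1.64. Among them psaA and psaB, which encode the reaction centre pair, stood at -1.17 ± 0.48 and -1.03 ± 0.23, and psaC, for the subunit that carries the terminal iron-sulfur clusters, at -2.41 ± 0.68. The levels of psaB were 9.61 and 9.17 in the OsGRX8 line and 10.57 and 10.26 in the wild type. Those of psaC were 2.48 and 2.65 in the OsGRX8 line and 5.89 and 4.05 in the wild type, so its wild-type arrays lay far apart.

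The complexes between and after the photosystems showed the same direction with a wider range. The 7 genes grouped with cytochrome b6f, ccsA for cytochrome assembly included, had a median of -1.58. The small-subunit genes petL and petG had the largest differences, -2.80 ± 0.77 and -2.30 ± 0.42, with petG at 1.18 and 1.81 in the OsGRX8 line and 4.16 and 3.43 in the wild type. The lower of the OsGRX8 line levels of petG lay near the absent Trp control (0.75 to 1.12 on the MV arrays). Readings so close to background leave the size of its difference uncertain. The same probe set read 0.93 on an OsGRX8 line array in water. The smallest differences of the group were those of petB, for cytochrome b6, at -0.50 ± 0.28, and ccsA at -0.46 ± 0.24. The 6 ATP synthase genes had a median of -1.68 and held both extremes of the whole set. The catalytic core gene atpA read 2.94 and 3.70 in the OsGRX8 line and 7.16 and 6.01 in the wild type (-3.27 ± 0.99, 9.63-fold lower). The cotranscribed pair atpB, for the beta subunit, and atpE stood at -0.56 ± 0.20 and -0.31 ± 0.17. The levels of atpE, for the epsilon subunit, were 10.99 and 10.67 in the OsGRX8 line and 11.23 and 11.06 in the wild type, and only 0.07 separated the nearest arrays of the groups. The 10 NDH genes, whose complex carries cyclic electron flow around photosystem I, had a median of -1.48 and ran from -2.36 (ndhG) to -0.61 (ndhC). The gene rbcL, for the Rubisco large subunit, read 5.39 and 5.16 in the OsGRX8 line and 7.21 and 6.59 in the wild type (-1.63 ± 0.33).

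Genes for chloroplast transcription and translation also stood lower. The 15 ribosomal protein genes had a median of -1.47, from -2.17 (rps18) to -0.60 (rps4). All 15 had an unadjusted p under 0.05, beside 1.93% of all probe sets that were lower at that threshold. The 4 RNA polymerase genes had a median of -1.21. Of these rpoC1 read 5.44 and 5.20 in the OsGRX8 line and 7.01 and 6.38 in the wild type (-1.37 ± 0.34), and rpoA read 8.80 and 8.30 in the OsGRX8 line and 9.71 and 9.49 in the wild type (-1.05 ± 0.23). The gene rpoB lay near the background of the array at 1.54 and 1.84 in the OsGRX8 line and 2.93 and 2.04 in the wild type, close to the Trp control. Textbook accounts place rpoB, rpoC1, rpoC2 and accD, the last for a subunit of acetyl-CoA carboxylase, mainly under the nuclear-encoded polymerase. Their median was -1.46, beside -1.52 over all 69 genes. The protease gene clpP stood at -0.69 ± 0.30. A further 8 probe sets matched several chloroplast genes each and were not named; they lay between -2.16 and -0.83.

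**Figure D2:**
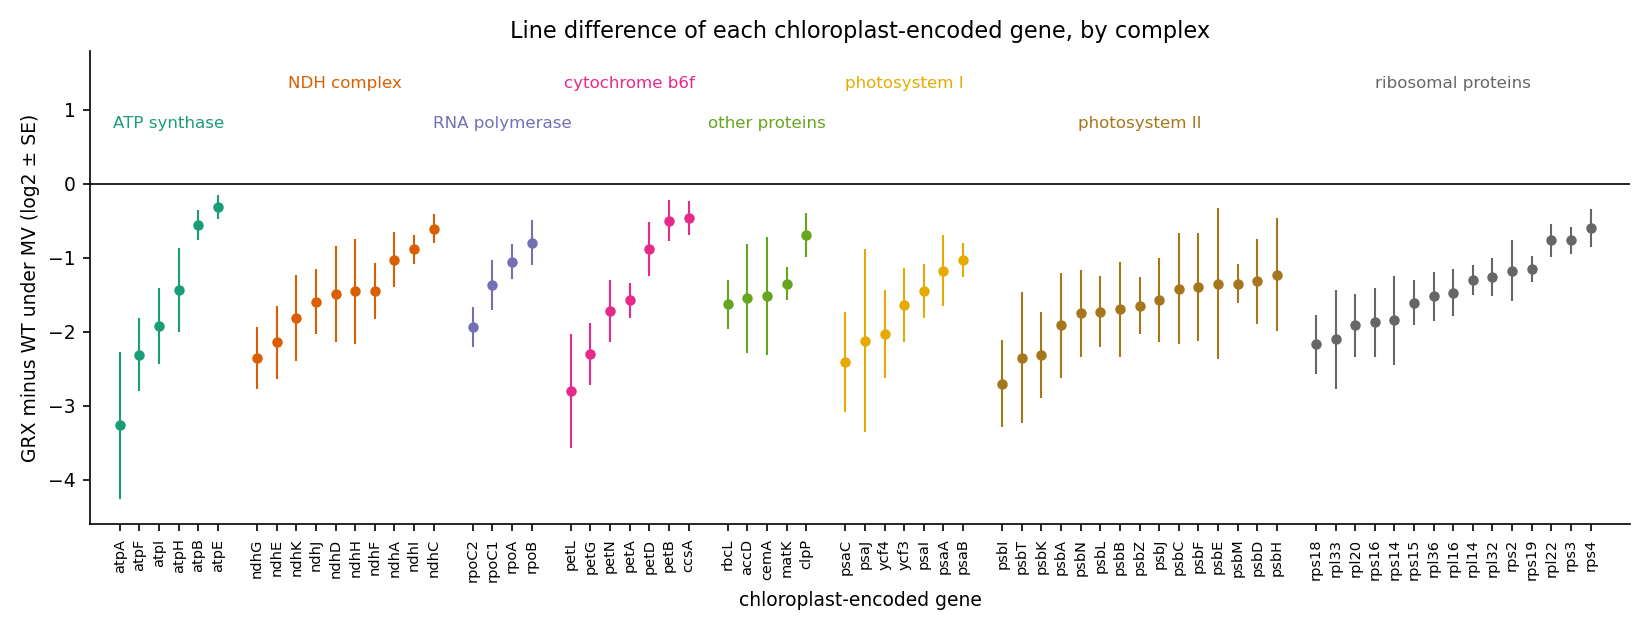
Difference of the OsGRX8 line minus the wild type under MV (log2, vertical axis) with its standard error for each of 69 chloroplast-encoded genes, grouped by complex and sorted within it. Every point lies below 0, from -3.27 for atpA to -0.31 for atpE, and both ends belong to the ATP synthase.

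The size of the difference varied with position and with signal. Of genes next to each other in the RefSeq annotation (assembly TAIR10.1), 64 pairs were both measured. Their differences correlated at r = 0.493 across these pairs, which share genes with one another, and their mean levels at r = 0.139. The row psaJ, rpl33, rps18 and rpl20 lay between -2.17 and -1.91, psbK and psbI at -2.31 and -2.70, and psaI, ycf4, cemA and petA between -2.03 and -1.45. Other rows spanned more: atpI, atpH, atpF and atpA ran from -1.44 to -3.27, and psbB, psbT, psbH, petB and petD from -0.50 to -2.35. Across the 69 genes the difference correlated at r = 0.581 with the mean level on the 12 arrays without MV, since dim probe sets had larger differences. The 23 brightest genes had a median of -1.05, the 23 in the middle -1.63 and the 23 dimmest -1.85. Genes are not independent replicates, and these coefficients describe the 4 arrays.

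The same lines were compared without MV to see which of these differences the treatment went with. In water the 69 chloroplast genes had a median difference of -0.51, in IAA -0.03 and in NaCl -0.09. Differences of more than 2-fold were found for 57 of 69 genes under MV, 6 in water, 5 in IAA and 0 in NaCl, all of them lower in the OsGRX8 line. In water 43 of the 69 were lower without overlap of the arrays (15.2% of all probe sets) and 1 was higher (16.8%), in IAA 12 were lower (15.5%) and in NaCl 6 (15%). Over all probe sets, 0 passed the adjusted test in water, in IAA or in NaCl by limma, with 255 (1.12%), 1666 (7.32%) and 1018 (4.48%) at an unadjusted p under 0.05. On the single arrays, median chloroplast levels in the OsGRX8 line and then the wild type were 6.85 and 6.73 against 7.23 and 7.69 in water, 7.24 and 6.28 against 7.41 and 5.73 in IAA, and 6.995 and 6.61 against 6.49 and 7.32 in NaCl. Both OsGRX8 line arrays under MV therefore lay below all 14 other arrays, and the nearest of those was wild-type IAA replicate 2. The widest actin 3′ to 5′ gaps of the 16 arrays were those of IAA replicate 2, 4.43 in the OsGRX8 line and 6.10 in the wild type.

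**Figure D3:**
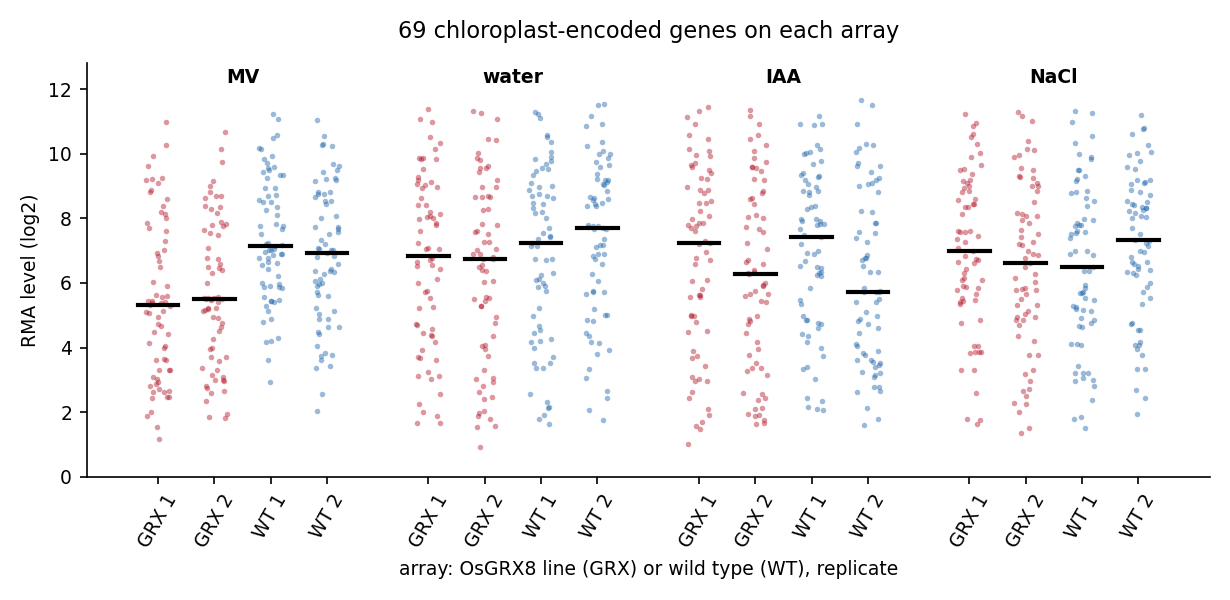
Log2 level (vertical axis) of the 69 chloroplast-encoded genes, 1 point per gene, on each of 16 arrays, with the median as a bar. The OsGRX8 line (GRX, red) stands left of the wild type (WT, blue) in each condition, and the medians of both OsGRX8 line arrays under MV, 5.31 and 5.49, are the lowest of the 16.

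Genes with large differences under MV tended to have large ones in water. Across the 69 genes the MV and water line differences, which share no array, correlated at r = 0.794, against 0.149 across 13415 nuclear probe sets. The MV difference correlated with that in IAA at 0.365 and in NaCl at 0.383 across the chloroplast genes. The difference of atpA was -2.12 ± 0.99 in water, that of petL -2.18 ± 0.77 and that of psbI -1.42 ± 0.59. In contrast petA stood at -0.43 ± 0.24 in water and rps19 at -0.24 ± 0.18. Replicates in water lay far apart for atpA and petL. The first read 3.12 and 5.45 in the OsGRX8 line and 7.13 and 5.67 in the wild type. The second read 3.02 and 2.42 in the OsGRX8 line and 3.53 and 6.27 in the wild type, so its size rested on wild-type replicate 2. Tested as an interaction, the line difference under MV minus that in water was below 0 for 68 of 69 chloroplast genes, with a median of -0.94 and ccsA at 0.01 as the exception. Of the 69, 19 had an unadjusted p under 0.05 for a lower value (0.8% of all probe sets) and 0 an adjusted p under 0.05 by limma, with 500 probe sets at an unadjusted p under 0.05 in all. Set against the mean line difference of water, IAA and NaCl, the MV difference was below 0 for all 69, with a median of -1.28. Here 43 had an unadjusted p under 0.05 for a lower value (1.82% of all probe sets), 0 passed after adjustment by limma, of 1088 probe sets at an unadjusted p under 0.05, and the smallest adjusted p was 0.340.

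Within each line, MV was set against water. In the OsGRX8 line 12 chloroplast genes fell and 0 rose, of 331 probe sets that changed (0.246% of all 22746 fell and 1.21% rose, limma adjusted p under 0.05), and the median over the 69 genes was -0.97. Among them rpl14 fell by 1.36 ± 0.20 (adjusted p = 0.00433), ndhI by 1.25 ± 0.20, atpB by 1.18 ± 0.20 and rps19 by 1.12 ± 0.18. In the wild type these genes also stood below 0. The values there were -0.48 ± 0.20 for rpl14, -0.48 ± 0.20 for ndhI and -0.20 ± 0.18 for rps19. For atpB the wild-type value was -0.74 ± 0.20 (limma adjusted p = 0.0551). The interaction passed the adjusted test for none of these genes. Over the 69 genes the median in the wild type was -0.20. At the same threshold 0 of the 69 fell and 2 rose there, of 984 probe sets that changed (1.77% of all fell and 2.56% rose). These were petG, by 1.68 ± 0.42 (limma adjusted p = 0.0401), and rps15, for a ribosomal protein, by 1.19 ± 0.31 (adjusted p = 0.0486). In the OsGRX8 line petG stood at 0.19 ± 0.42 and rps15 at -0.09 ± 0.31, and the interaction passed the adjusted test for neither. The responses of the lines, which share no array, correlated at r = 0.894 across the 69 genes, so the genes kept much the same order in both while the values in the OsGRX8 line lay lower. These responses use the arrays of the line comparison and are given beside it as values of their own.

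**Figure D4:**
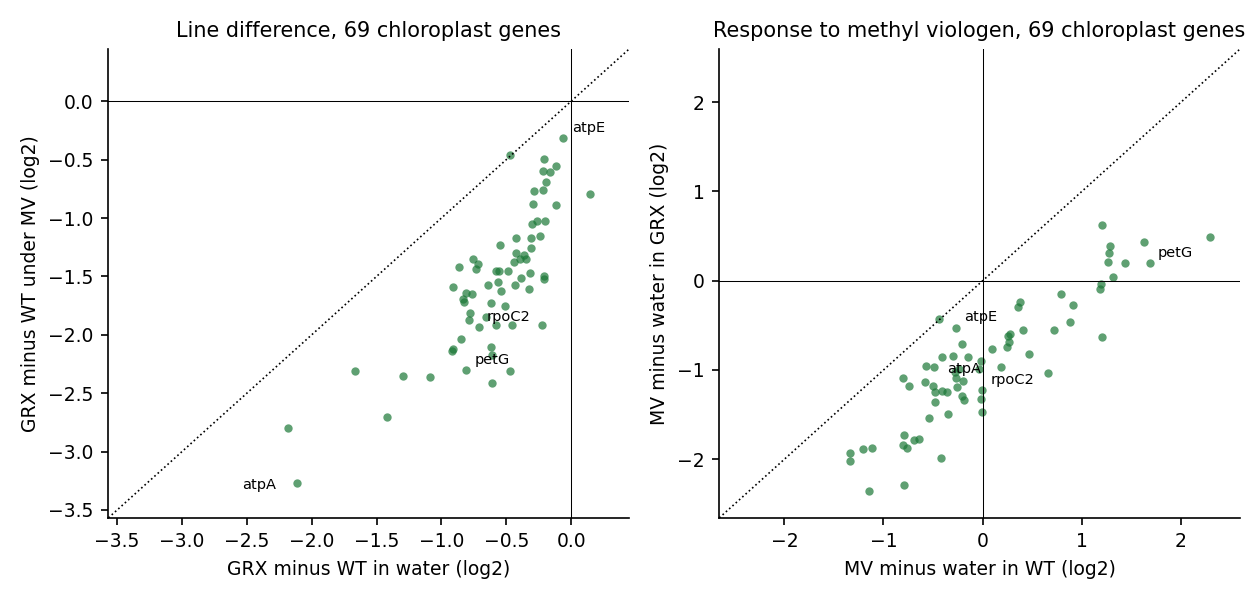
The 69 chloroplast-encoded genes as points (log2), with dotted lines of equality. Left, the OsGRX8 line minus the wild type under MV against the same in water (r = 0.794); right, the response to MV in the OsGRX8 line against that in the wild type (r = 0.894). All points but that of ccsA lie below the lines of equality.

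Mitochondrial genes, which encode subunits of the respiratory chain, were lower by less. Their 18 probe sets had a median of -0.31, and most read under 2.5 on all 4 arrays, near the Trp control. The 2 brightest were the exception in size. The gene nad4, for a complex I subunit, read 5.22 and 4.68 in the OsGRX8 line and 6.42 and 6.18 in the wild type (-1.35 ± 0.34, limma adjusted p = 0.472), and cox1, for a cytochrome c oxidase subunit, read 4.32 and 4.15 in the OsGRX8 line and 6.41 and 4.90 in the wild type (-1.42 ± 0.41). In water the OsGRX8 line arrays read 5.19 and 4.90 for nad4 and the wild-type arrays 5.13 and 6.35, which overlap. The gene nad6 had the smallest p of the group, at 2.12 and 1.72 in the OsGRX8 line and 2.65 and 2.61 in the wild type (-0.71 ± 0.17, limma adjusted p = 0.431).

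Nuclear loci whose code begins with AT2G07 lie beside and within a copy of the mitochondrial genome on chromosome 2, so their probe sets can read mitochondrial transcripts. Their 68 probe sets had a median difference of -0.13, and 26 of them (38.2%) were lower without overlap against 4 (5.88%) that were higher. Over all probe sets, 15.9% were lower and 20.3% higher without overlap. The lowest was AT2G07708, at 4.74 and 4.86 in the OsGRX8 line and 6.72 and 6.18 in the wild type (-1.65 ± 0.89). AT2G07773, which has the smallest p among lower nuclear genes, read 1.33 and 1.68 in the OsGRX8 line and 2.73 and 2.35 in the wild type (-1.04 ± 0.21, limma adjusted p = 0.292). The probe sets of both carry the suffix given to probes that match more than 1 transcript, so these values cannot be assigned to the nuclear locus.

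Of 13264 nuclear genes, counted by locus, 30 were more than 2-fold higher and 12 more than 2-fold lower in the OsGRX8 line under MV, against 1 and 0 in water, 17 and 14 in IAA, and 1 and 3 in NaCl. Arrays did not overlap for 30 of the 30 higher genes and 10 of the 12 lower ones. Over all probe sets, 20.3% were higher and 15.9% lower without overlap. The choice by fold used the same arrays and favours such separation, so these counts add no support. Over the 30 higher genes the median difference was 1.12 under MV, which chose them, and 0.38 in water, 0.37 in IAA and 0.02 in NaCl. Of the 12 lower genes, 4 were AT2G07 loci.

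The 6 higher nuclear genes with the smallest p-values were led by AT5G58570, whose function the sources used here do not give. Its levels were 3.86 and 3.77 in the OsGRX8 line and 2.52 and 2.45 in the wild type (1.33 ± 0.19, 2.51-fold higher, limma adjusted p = 0.119). In water the arrays of the lines overlapped, at 4.91 and 4.38 in the OsGRX8 line and 4.57 and 4.53 in the wild type, and under MV the gene fell by 2.06 ± 0.19 in the wild type (adjusted p = 8.38e-05) and stood at -0.83 ± 0.19 in the OsGRX8 line (adjusted p = 0.0557). AT5G17820, a class III peroxidase of the cell wall, had the largest nuclear difference. It read 4.40 and 4.13 in the OsGRX8 line and 2.01 and 2.70 in the wild type (1.91 ± 0.30, 3.75-fold higher, limma adjusted p = 0.126). AT5G13140, which encodes a protein of the pollen Ole e 1 allergen family, read 6.11 and 5.98 in the OsGRX8 line and 5.20 and 5.27 in the wild type (0.81 ± 0.14), and AT1G60010 read 4.996 and 5.13 in the OsGRX8 line and 3.98 and 4.03 in the wild type (1.06 ± 0.19). AT3G05180, for a GDSL-type lipase, stood at 0.97 ± 0.18 and AT3G03040 at 1.04 ± 0.20. In 5 of these genes, all but AT3G03040, the wild-type level under MV was lower than in water and passed the test, while in the OsGRX8 line 0 of the 6 passed in that comparison. The interaction passed the adjusted test for 0 of the 6, and the wild-type comparison shares its MV arrays with the line difference.

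**Figure D5:**
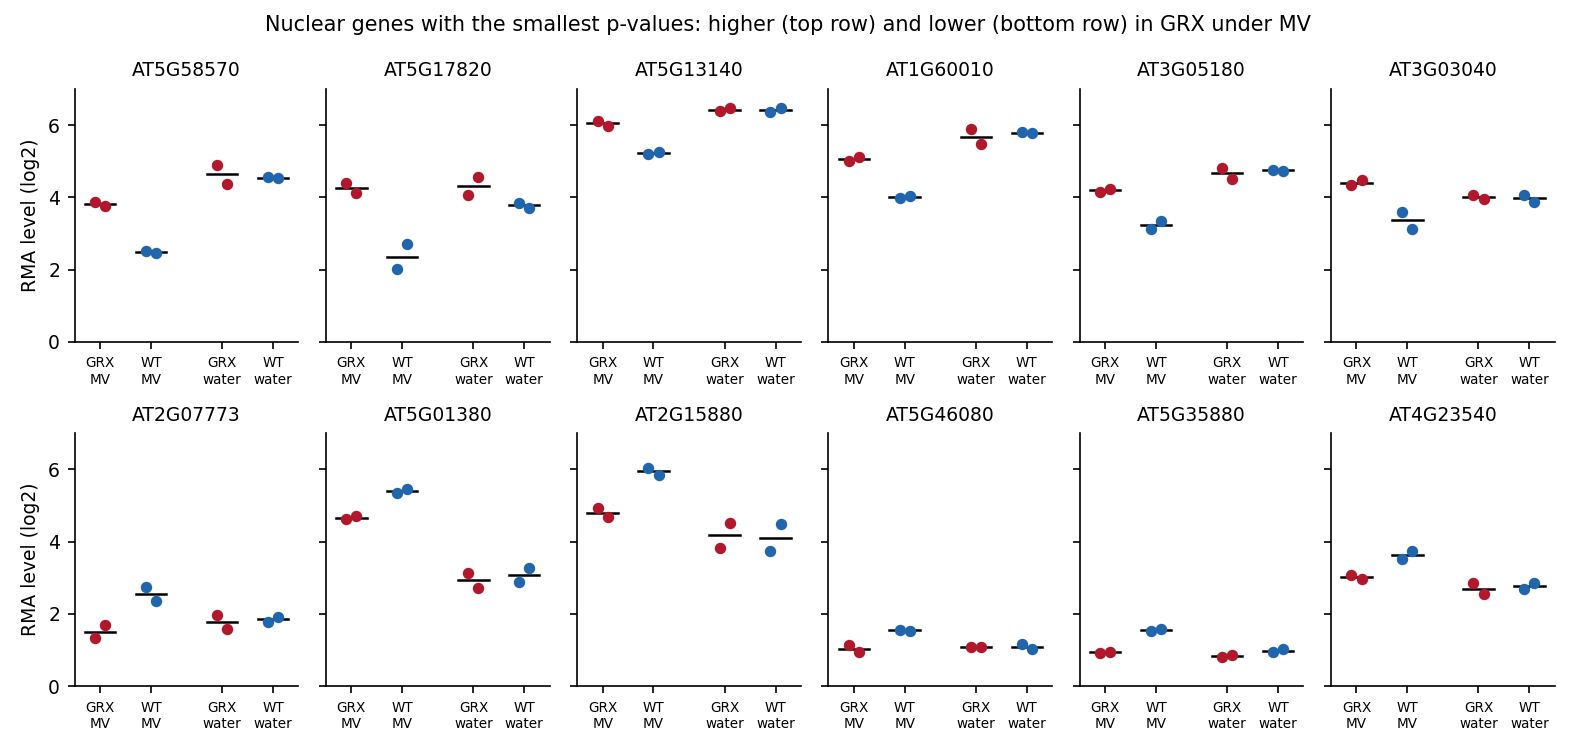
Log2 levels (vertical axis) on single arrays, with the mean of 2 arrays as a bar, for the 12 named nuclear genes under MV and in water, the OsGRX8 line (GRX) left of the wild type (WT). Under MV the arrays of the lines do not overlap in any of the 12, as the rule that named them required.

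Of the lower nuclear genes with the smallest p-values, AT5G01380, which encodes the trihelix transcription factor GT-3a, read 4.62 and 4.71 in the OsGRX8 line and 5.35 and 5.45 in the wild type (-0.74 ± 0.17, limma adjusted p = 0.398). It rose under MV in both lines, by 1.74 ± 0.17 in the OsGRX8 line (adjusted p = 0.000292) and by 2.33 ± 0.17 in the wild type (adjusted p = 2.99e-05). AT2G15880, for a leucine-rich repeat extensin-like protein of the cell wall, read 4.92 and 4.68 in the OsGRX8 line and 6.04 and 5.86 in the wild type (-1.15 ± 0.30). AT4G23540 stood at -0.61 ± 0.17. AT5G46080 and AT5G35880 stood at -0.50 ± 0.14 and -0.61 ± 0.17, with levels of 0.91 to 1.13 in the OsGRX8 line and 1.52 to 1.57 in the wild type, near the Trp control.

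Further genes over 2-fold were picked after their values were seen. AT1G52050, a jacalin-related lectin, read 3.85 and 3.91 in the OsGRX8 line and 1.64 and 2.75 in the wild type (1.68 ± 0.55), and AT1G52070, another such lectin, read 5.34 and 5.48 in the OsGRX8 line and 3.16 and 4.39 in the wild type (1.64 ± 0.60). The class III peroxidase AT3G01190 read 3.72 and 4.07 in the OsGRX8 line and 2.63 and 2.96 in the wild type (1.09 ± 0.51). OSM34, an osmotin-like defence protein, read 7.26 and 6.83 in the OsGRX8 line and 6.02 and 5.75 in the wild type (1.16 ± 0.33). The line difference of OSM34 was above 0 without MV too, at 0.63 in water, 0.44 in IAA and 0.89 in NaCl. That of AT1G52070 was 0.42, 1.02 and 0.68 in the same order. AT1G52050 stood at 0.05, 0.26 and -0.24, and AT3G01190 at -0.12, -0.27 and 0.01. GH3.3, which conjugates auxin to amino acids, read 5.52 and 6.34 in the OsGRX8 line and 7.59 and 6.49 in the wild type (-1.11 ± 0.38). AT3G02480 read 4.77 and 4.75 in the OsGRX8 line and 8.04 and 4.64 in the wild type, and AT4G36700 read 2.88 and 3.85 in the OsGRX8 line and 6.31 and 3.47 in the wild type, so both folds rested on wild-type replicate 1.

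Markers of root cells were read beside these genes, since whole seedlings hold both roots and shoots. Of 9 root markers, 3 had a named probe set, and all 3 fitted differences were above 0, with a median of 0.65. The mean level of the 3 was 4.52 and 4.48 in the OsGRX8 line and 4.15 and 3.83 in the wild type. EXPA7, an expansin of root hairs, read 2.25 and 2.30 in the OsGRX8 line and 1.63 and 1.29 in the wild type (0.82 ± 0.19, limma adjusted p = 0.367), and EXPA18, also of root hairs, read 1.85 and 2.19 in the OsGRX8 line and 1.27 and 1.47 in the wild type. Both expansins lay near the Trp control. PYK10, an abundant root beta-glucosidase, overlapped, at 9.47 and 8.95 in the OsGRX8 line and 9.55 and 8.73 in the wild type. The part of these markers in the nuclear differences was not tested. Of 8 guard cell and epidermis markers 2 were measured, SPCH (0.43 ± 0.19) and MUTE (-0.0073), which lay near the Trp control. The 2 measured pollen and seed markers lay at 0.04 each.

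Among nuclear genes known for oxidative stress, 0 members of any list passed the adjusted test between the lines under MV by limma, where 0 of 22746 probe sets passed. Most members of several lists had no named probe set. Measured were 4 of 32 oxidative signalling genes, 8 of 34 antioxidant enzymes and 12 of 34 heat shock genes. The same held for 11 of 38 glutathione S-transferases and 3 of 17 detoxification genes. Of 17 measured CC-type glutaredoxins, the class of OsGRX8, 3 were higher at an unadjusted p under 0.05 (3.4% of all probe sets) and 1 lower (1.93%), with a median of 0.18. AT4G15680 read 5.34 and 5.74 in the OsGRX8 line and 4.17 and 5.15 in the wild type (0.88 ± 0.36). AT4G15690 read 4.65 and 4.87 in the OsGRX8 line and 3.44 and 4.35 in the wild type (0.87 ± 0.32). AT5G18600 stood at 0.44 ± 0.18, with 7.80 and 7.69 in the OsGRX8 line and 7.05 and 7.56 in the wild type, and AT1G03020 at -0.76 ± 0.31, with 1.16 and 1.32 in the OsGRX8 line and 1.58 and 2.42 in the wild type. The wild-type arrays of all 4 lay far apart, and the size rested on which was kept. Without wild-type replicate 1 the differences were 0.40, 0.41, 0.18 and -1.18 in the order given, and without wild-type replicate 2 they were 1.37, 1.33, 0.69 and -0.34. AT4G15680 and AT4G15690 are neighbouring, closely related copies that can share probe signal. GRX480, a glutaredoxin of salicylic acid and stress signalling singled out after its values were seen, rose under MV by 3.73 ± 0.39 in the OsGRX8 line and 3.72 ± 0.39 in the wild type (limma adjusted p = 0.000292 and 0.000188). The 5 other glutaredoxins had a median of 0.12.

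Of 8 measured antioxidant enzymes 1 was higher at an unadjusted p under 0.05 (3.4% of all probe sets). It was SAPX, the stromal ascorbate peroxidase that removes hydrogen peroxide in the chloroplast. It read 6.49 and 5.97 in the OsGRX8 line and 4.94 and 6.02 in the wild type (0.75 ± 0.31), and the arrays overlapped. The median of the 8 was -0.03. The 4 oxidative signalling genes all had fitted differences below 0, between -0.53 and -0.06, and WRKY6, a stress-responsive transcription factor, stood at -0.31 ± 0.27. WRKY6 rose under MV in both lines, by 1.45 ± 0.27 in the OsGRX8 line and 1.96 ± 0.27 in the wild type. Of 12 heat shock genes, which code for chaperones, 9 rose under MV in the OsGRX8 line (1.21% of all probe sets) and 8 in the wild type (2.56% of all), and the median line difference was 0.06. AT2G20560, a DNAJ-type co-chaperone, read 5.32 and 5.10 in the OsGRX8 line and 4.48 and 5.07 in the wild type, and HSA32, a heat-induced protein of long-term thermotolerance, read 4.32 and 4.02 in the OsGRX8 line and 3.43 and 4.15 in the wild type. Glutathione S-transferases conjugate glutathione to foreign and oxidized compounds. Of 11 measured, 1 was higher at an unadjusted p under 0.05 (3.4% of all probe sets), GSTU16 (0.47 ± 0.21), and their median was 0.01. Of 3 detoxification genes, 2 rose under MV in each line, beside 1.21% of all probe sets in the OsGRX8 line and 2.56% in the wild type. Among these UGT73B5, a glucosyltransferase induced by oxidative stress, read 6.89 and 7.29 in the OsGRX8 line and 7.42 and 7.49 in the wild type.

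Nuclear genes that act in the chloroplast were counted beside the chloroplast genome. The 9 measured nuclear photosynthesis genes had a median difference of 0.06 and lay between -0.14 and 0.33. Of them 0 had an unadjusted p under 0.05, beside 5.33% of all probe sets. Of 28 listed nuclear genes of chloroplast transcription and RNA handling, 2 were measured, and both stood above 0. PAC, needed for chloroplast RNA maturation, read 4.40 and 4.71 in the OsGRX8 line and 4.19 and 3.95 in the wild type (0.48 ± 0.22, unadjusted p = 0.0454), and AT5G15700, for a phage-type RNA polymerase of organelles, stood at 0.36 ± 0.23. The 4 sulfur assimilation genes had a median of 0.26, and the 2 flavonoid genes -0.17. The 2 jasmonate and ethylene defence genes had a median of 0.17. SAG101, the only measured member of the salicylic acid list and a partner in defence signalling, read 4.99 and 4.81 in the OsGRX8 line and 5.61 and 5.33 in the wild type (-0.57 ± 0.19, unadjusted p = 0.0111). The lists of TGA factors, vascular markers and meristem markers had no named probe set.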

How the data were processed

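Gene expression in the 16 samples was measured on Affymetrix ATH1 arrays from 500 ng of total RNA. The deposited log2 values, 1 column per array, were made with RMA, for which the submitters' processing notes give no version. The primer used in labelling is not given in the sources used here, and chloroplast transcripts lack the long poly(A) tails of nuclear ones. RMA includes quantile normalization, which assumes alike distributions on all arrays. Gene names came from the platform annotation, in which 13513 probe sets had 1 gene, 503 several and 8730 none. Organelle genes were placed through RefSeq, chloroplast genes by gene identifier and mitochondrial ones by symbol, since the annotation holds no ATCG or ATMG codes, and 11 probe sets could not be placed. No sequence or coordinate was used.

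Each of 22746 probe sets was fitted with 8 group means in limma 3.58.1 in R 4.3.3 (lmFit, eBayes without a trend, 8 residual and 4.52 prior degrees of freedom), with Benjamini-Hochberg adjustment and a threshold of 0.05. Precision is limited by the number of arrays: the 95% interval of a line difference reached 0.45 (log2, 1.37-fold) to either side at the median. The pipeline was tested on simulated data. Of 19 gene lists by locus, 3 had no measured member.

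The rule for names took, among single-gene probe sets without overlap of the arrays, the smallest p-values, 6 each way for nuclear and 4 each way for organelle genes, and up to 4 members of each list. Genes with several probe sets were represented by the brightest, and by that probe set no organelle gene was higher without overlap. Other chloroplast genes are given as members of their complex. The genes, lists and comparisons were chosen with earlier results of these data known. Replicate numbers did not pair the samples: deviations of same-numbered arrays under MV correlated at 0.062, and over 28 pairs of groups between -0.11 and 0.36, over 0.1 in 9, among them 5 of the 6 pairs within the wild type. Pairing was taken only where every pair lay over 0.1. Alternatives were other normalizations, a filter, an intensity trend, array weights, fewer arrays in the fit, a block for the replicate number, removal of cross-hybridizing probe sets each array left out, and scaling on the poly-A spike-ins, added after the data were seen.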

Additional observations from a re-analysis of the deposited data

How the results depend on the processing

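The count of 0 probe sets past the adjusted test under MV was 9, all lower and 7 of them chloroplast genes (rpoC2, petA, rpl14, rps19, rps15, petG and matK), with median centring, which moved the median of all probe sets to -0.13. It was 1, rpoC2, with an intensity trend. With scaling on the poly-A spike-ins, added after the data were seen, it was 88, all higher, because the median of all probe sets moved to 1.21, and the chloroplast, organelle and mitochondrial medians were -0.33, -0.20 and 0.88. The replicate number as a block, though the numbers do not pair the samples, also gave 1, rpoC2 (adjusted p = 0.00392), and gave 1 for the MV difference against the mean of the other 3 conditions. Leaving out 1 array gave 0 to 7 under MV: 7 without wild-type replicate 2, of which 6 were lower and 3 chloroplast genes (rpl14, rpoC2 and ndhF), and 2 without OsGRX8 line replicate 2. For the MV difference against the other 3 conditions it gave 0 to 2, with 2 without wild-type MV replicate 2. The counts in water and for the interaction were 0 under every alternative run. The chloroplast median ran from -1.78 to -1.27 with 1 MV array left out, and the organelle median from -1.53 to -1.14. The mitochondrial median ran from -0.40 to -0.25 with 1 array left out, and was -0.46 with median centring, -0.42 with nuclear normalization and -1.39 over the 2 probe sets among the brighter ones. Single-gene directions turned for PYK10 (-0.076 with median centring, and -0.34 to 0.48 with 1 array left out), for AT3G02480 (-3.28 to 0.12, above 0 without wild-type replicate 1) and for GRX480 (-0.73 to 0.24, above 0 without OsGRX8 line replicate 1). The contrast with all 4 conditions needs every array, so 2 alternatives with fewer arrays could not be run for it. Except where a value shows it, the cause was not tested.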

Other observations

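Of the 18 mitochondrial probe sets, 2 rose under MV in the wild type, where 2.56% of all probe sets rose, and 0 passed the test in the OsGRX8 line. The complex I subunit gene nad6 stood at 0.50 ± 0.17 for MV minus water in the OsGRX8 line (limma adjusted p = 0.268) and rose by 1.07 ± 0.17 in the wild type (adjusted p = 0.00338). A probe set of nad5, for another subunit, stood at 0.20 ± 0.16 in the OsGRX8 line and rose by 0.83 ± 0.16 in the wild type (adjusted p = 0.00969). The other nad5 probe set did not rise in the wild type, at -0.10 ± 0.15, and stood at 0.21 ± 0.15 in the OsGRX8 line. Both probe sets that rose carry the suffix given to probes that match more than 1 transcript. The interaction passed the adjusted test for neither gene, so the responses were not shown to differ between the lines, and all of these levels lay under 2.7, near the Trp control. The poly-A spike-ins read 4.68 and 4.16 at the median under MV and 2.35 and 3.28 in water on the wild-type arrays, and their part in these responses was not tested. In NaCl, AT5G58570, which had the smallest p among higher nuclear genes under MV, read 1.71 and 1.45 in the OsGRX8 line and 1.95 and 2.10 in the wild type, a line difference of -0.44 ± 0.19 that is opposite in sign to the one under MV. The NaCl difference did not pass the adjusted test, and these levels lay near the Trp control.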
